A study of Mus musculus with 12 samples.

Results

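The genes described here are 10 mouse genes of scavenging and of apoptotic-cell uptake: the class A and collagenous scavenger receptors Msr1, Marco and Colec12, the CD36 family members Cd36 and Scarb1, the lysosomal sialomucin Cd68, the apoptotic-cell receptors Mertk and Timd4, and the bridging ligands Gas6 and Pros1. They were taken by symbol from 31054 genes listed for each treated library, and all 10 were found. Their levels are given as CPM, the UMIs (distinct molecules) of a gene per 1000000 UMIs of a library, summed over barcodes that held 200 or more genes and no more than 10% of UMIs from mitochondrial genes.

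Microglia and other brain macrophages clear dying cells by recognising phosphatidylserine, a lipid that apoptotic cells turn outward. TIM-4, the product of Timd4, binds this lipid directly, whereas the receptor tyrosine kinase MERTK binds it through the soluble bridges GAS6 and protein S, the latter encoded by Pros1. The class A scavenger receptor encoded by Msr1, CD36 and SR-BI, encoded by Scarb1, take up modified or native lipoproteins and their lipids, and CD68 resides mainly in late endosomes and lysosomes of phagocytes.

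C57BL/6J mice received the alkylating agent busulfan and then lineage-depleted hematopoietic stem and progenitor cells (HSPCs) of male donors carrying a lentiviral GFP vector, either intravenously (i.v.) or into the cerebral ventricles (i.c.v.). Brains of 4 treated mice were sorted into GFP+ CD45+ CD11b+ CX3CR1+ cells, the microglia-like cells (MLCs) of donor origin, and GFP- cells of the same gate, called endogenous microglia. From a treatment-naive C57BL/6J mouse, labelled 8 to 12 weeks old, a microglia sort, an astrocyte sort, a neuron sort and peripheral blood mononuclear cells (PBMCs) were sequenced, with 1 library each. The treated mice were a female (mouse 2) and a male (mouse 27) dosed i.v. and a female (mouse 4) and a male (mouse 19) dosed i.c.v., so that sex and route were balanced with 1 mouse of each kind. Busulfan was common to all treated mice, as was a later i.v. infusion of bone marrow cells without the vector, which was given after either route. The GFP- gate therefore took any cell without GFP, whichever animal it came from, and no untreated mouse of the same age was sequenced. Treated mice are labelled as 22 to 28 weeks old, whereas the sort is described as taking place 12 to 13 months after dosing.

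Each GFP+ library held 2266 to 3536 kept cells and 8835197 to 16514669 UMIs, against 2675 to 4555 cells and 4970758 to 8105756 UMIs for GFP-. The median cell had 3499 UMIs in the GFP+ library of mouse 2 and 842 to 1308 in the other treated libraries, so shares of cells with a UMI were compared after each cell was thinned at random to 500 UMIs. All 10 microglia markers (P2ry12, Tmem119, Sall1 and others) were detected in every treated library, with a summed level of 4714 to 9464 CPM in GFP+ and 10325 to 14916 CPM in GFP-. At least 2 of them were found at 500 UMIs in 42.9% to 67.3% of GFP+ and 87.5% to 94.5% of GFP- cells. The naive neuron sort carried oligodendrocyte markers in 96.9% of its cells and neuron markers in 0.622%, and it is named here by its sort only. The naive microglia library was shallow, with a median of 425 UMIs per cell. Any pair of libraries shared 0 to 8 cell barcodes, at most 0.348% of the smaller library.

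The promoters of 7 of the 10 genes were found among RefSeq promoters of GRCm38.p6, each 300 bases from 250 before to 50 after the transcription start. Those of Pros1 and Mertk, which were lower in GFP+ libraries, Cd68, which was higher, and Cd36, whose difference varied between mice, are shown 5' to 3'. The start used for Cd36 lies inside the annotated gene, 52905 bases downstream of its outermost start, so that window covers 1 of several starts. Capitals stand at the GC box GGGCGG and the PU.1-type ETS core GAGGAA on either strand.

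Pros1 (chr16:62854057-62854356, + strand): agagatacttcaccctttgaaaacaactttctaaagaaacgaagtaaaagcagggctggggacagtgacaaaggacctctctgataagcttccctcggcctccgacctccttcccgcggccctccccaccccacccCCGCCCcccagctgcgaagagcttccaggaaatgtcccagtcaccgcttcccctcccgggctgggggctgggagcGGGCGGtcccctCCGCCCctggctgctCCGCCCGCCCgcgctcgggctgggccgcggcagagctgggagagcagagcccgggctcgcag

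Mertk (chr2:128698665-128698964, + strand): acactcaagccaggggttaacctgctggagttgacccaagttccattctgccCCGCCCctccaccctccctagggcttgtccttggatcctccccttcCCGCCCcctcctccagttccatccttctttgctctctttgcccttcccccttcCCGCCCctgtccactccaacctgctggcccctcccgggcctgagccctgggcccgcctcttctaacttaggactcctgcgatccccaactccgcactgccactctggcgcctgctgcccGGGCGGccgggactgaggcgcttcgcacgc

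Cd68 (chr11:69666121-69666420, - strand): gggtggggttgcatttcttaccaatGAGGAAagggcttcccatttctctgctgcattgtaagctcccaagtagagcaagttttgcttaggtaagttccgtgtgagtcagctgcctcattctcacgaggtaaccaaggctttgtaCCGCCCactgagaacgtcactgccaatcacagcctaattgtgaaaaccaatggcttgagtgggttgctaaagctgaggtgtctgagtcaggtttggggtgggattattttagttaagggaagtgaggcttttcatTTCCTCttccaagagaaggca

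Cd36 (chr5:17835847-17836146, - strand): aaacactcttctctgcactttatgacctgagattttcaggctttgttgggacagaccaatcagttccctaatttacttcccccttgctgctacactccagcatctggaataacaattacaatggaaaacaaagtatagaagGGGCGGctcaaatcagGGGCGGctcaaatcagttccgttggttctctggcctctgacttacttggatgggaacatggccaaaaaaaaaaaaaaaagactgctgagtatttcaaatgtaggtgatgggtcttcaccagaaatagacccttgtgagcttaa

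The GC box occurred 5 times at Pros1, where the last matches overlap, 4 times at Mertk, once at Cd68 and 2 times at Cd36, and 35.7% of 32851 promoters of this length held it. Gas6 had 4 matches of it, and Marco and Timd4 had 0. The ETS core was matched 2 times at Cd68 and 1 time at Marco and not at the other 5 genes, and 28.3% of promoters held it. The AP-1 letters TGANTCA, where N is any base, were matched 2 times at Cd68 and at none of the other 6, against 7.81% of promoters. Of the other letters searched on both strands, CCAAT was matched 3 times at Cd68 and 1 time each at Cd36 and Timd4 (37.4% of promoters), and the MAF half-site TGCTGA 1 time at Cd36 and 2 times at Timd4 (19.5%). CACGTG as the E-box, TGTGGT as the RUNX core, TATAAA as the TATA box, and direct repeats of AGGTCA with 1 base (PPAR/RXR type) or 4 bases (LXR/RXR type) between them were not matched at any of the 7 (7.15%, 16.8%, 13.6%, 0.0396% and 0.0152% of promoters). These matches describe letters in a window and were not tied to any measurement of binding.

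Between GFP+ and GFP- libraries, Msr1 and Cd68 were higher in MLCs and Pros1, Scarb1 and Mertk were lower. The comparison asked how MLCs and endogenous microglia of the same brains differ. It was fitted on UMIs summed per library with edgeR's quasi-likelihood test, 4 against 4 libraries, over 12540 genes with enough counts, with TMM scaling and Benjamini-Hochberg adjustment. Here 9 of the 10 genes passed the low-count filter and 5 were called at an adjusted p under 0.05, 2 higher and 3 lower, against 30.7% of all tested genes called (15.4% higher and 15.3% lower). The median log2 fold change of the 9 genes was -0.51, beside 0.00085 over all tested genes. With 9 genes this median is the estimate of a single gene, Timd4 (SE 1.06; adjusted p = 0.743, edgeR). It rests on 135 UMIs in the treated libraries and does not show a shift of the set. On library CPM the 4 GFP+ and 4 GFP- libraries did not overlap for 4 of the 9 genes (Msr1, Scarb1, Mertk and Pros1), against 37.7% of tested genes, of which 6.07% lay higher and 31.7% lower in GFP+. In bulk sums of this kind, fewer expressing cells and less RNA per cell cannot be told apart. Each library is a separate sort, and the GFP+ and GFP- libraries of a mouse came from 1 brain.

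**Figure D1:**
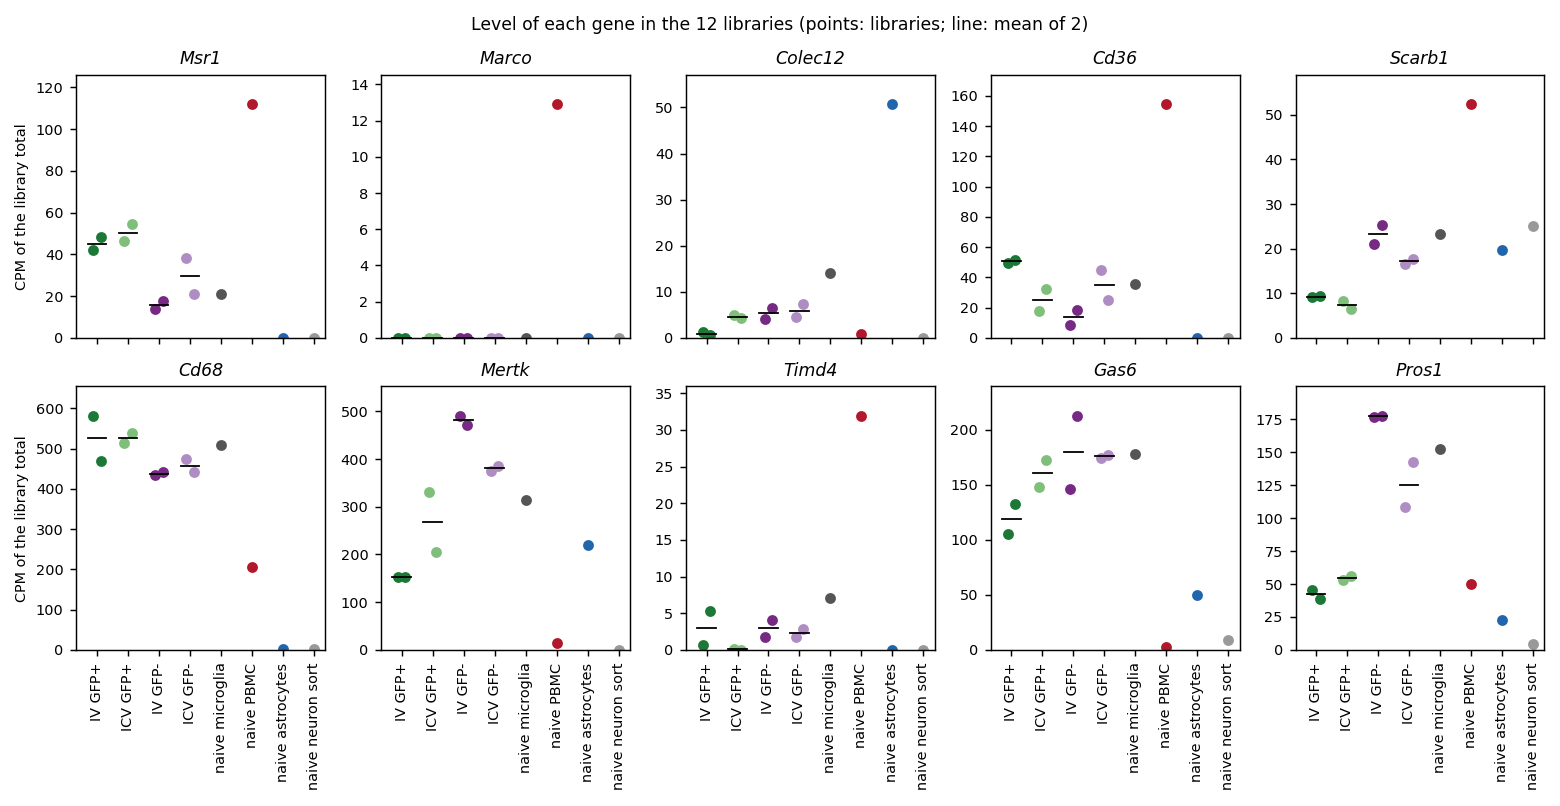
Level of each of the 10 genes in the 12 libraries. The vertical axes give CPM of the library total from 0, points are libraries, short lines are means of 2 libraries of a group, and colours mark groups. Pros1, Scarb1 and Mertk lie lower in all 4 GFP+ than in all 4 GFP- libraries, Msr1 lies higher, and Marco is at 0 outside PBMCs.

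Msr1 encodes the class A macrophage scavenger receptor (chr8:39581685-39642673, GRCm38, minus strand). Its level in GFP+ libraries was 42.1 CPM in mouse 2, 48.2 in mouse 27, 46.3 in mouse 4 and 54.7 in mouse 19. In GFP- libraries it was 13.9, 17.9, 38.4 and 21.1 CPM in the same order. The highest GFP- value was below the lowest GFP+ value, and the GFP- library of mouse 4 stood nearest to them. The log2 fold change was 1.31 ± 0.29 (SE; adjusted p = 0.0110, edgeR), with GFP+ higher in 4 of 4 mice. At 500 UMIs, 1.98% to 3.31% of GFP+ cells and 0.224% to 1.47% of GFP- cells held an Msr1 UMI. Such shares did not overlap between the sorts for Msr1, Scarb1 and Pros1, against 16.8% of tested genes (4.9% higher and 11.9% lower in GFP+). Within cells with at least 2 microglia markers, and more than of any other type, the level of Msr1 was 41.9 to 59.1 CPM in GFP+ and 5.92 to 32.4 CPM in GFP- libraries. All GFP+ libraries lay higher there too, as they did for 8.84% of all tested genes, whereas 35% lay wholly lower. Among the i.c.v. mice alone the log2 fold change was 0.92 with an adjusted p of 0.100. The summed level of 10 monocyte markers was 547, 612, 381 and 392 CPM in GFP+ libraries of mice 2, 27, 4 and 19. In GFP- libraries it was 108, 213, 462 and 267 CPM, in the same rank order as Msr1. The part of monocyte-like cells in the Msr1 difference was not tested.

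Cd68 (chr11:69664213-69666153, minus strand) was at 582, 469, 513 and 540 CPM in GFP+ libraries of mice 2, 27, 4 and 19, and at 434, 441, 475 and 441 CPM in the GFP- libraries. On library totals the groups overlapped, because the GFP- library of mouse 4 lay above the GFP+ library of mouse 27. After TMM scaling they did not, at 532 to 663 in GFP+ and 381 to 457 in GFP-, and 15.9% of tested genes lay wholly higher in GFP+ on that scale. The log2 fold change was 0.51 ± 0.12 (SE; adjusted p = 0.0126, edgeR). This call was kept in 20 alternatives and lost in 3, with log2 values from 0.22 to 0.37 and adjusted p from 0.120 to 0.546. With library totals alone the value was 0.23 (adjusted p = 0.120), so the call rested in part on the scaling. That setting moved the median of all genes to -0.28 and the split of calls from 1930 higher and 1923 lower to 763 and 3891. With every cell thinned to 500 UMIs it was 0.22 (adjusted p = 0.546), and the shares of cells with a Cd68 UMI overlapped, at 14.7% to 22.2% of GFP+ and 12.5% to 18.2% of GFP- cells. At 1000 UMIs, a depth reached by 7204 of 11767 GFP+ and 7092 of 15672 GFP- cells, they did not, at 31.4% to 41.5% and 24.9% to 30.0%, and neither did those of 29.9% of tested genes (7.47% higher and 22.4% lower in GFP+). In cells with microglia markers Cd68 was at 509.6 to 659 CPM in GFP+ and 419 to 477 CPM in GFP- libraries.

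Pros1 (chr16:62854307-62929346, plus strand), encoding protein S, showed the lowest adjusted p of the 9 genes. Its GFP+ levels were 45.8, 38.8, 53.0 and 56.1 CPM in mice 2, 27, 4 and 19, against 177, 178, 108 and 143 CPM in GFP-. The groups did not overlap, and the i.v. mice had both the lowest GFP+ and the highest GFP- values. The log2 fold change was -1.36 ± 0.15 (SE; adjusted p = 0.000731, edgeR) with 4 of 4 mice lower in GFP+. Pros1 UMIs at a depth of 500 were found in 2.52% to 3.51% of GFP+ and 6.50% to 9.37% of GFP- cells. In cells with microglia markers its level was 52.7 to 64.1 CPM in GFP+ and 128 to 194 CPM in GFP- libraries. The naive microglia library, at 153 CPM (95% exact Poisson interval 129 to 179), fell among the GFP- libraries.

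Gas6, the other MERTK ligand (chr8:13465374-13494490, minus strand), did not follow Pros1. It stood at 105, 132, 148 and 173 CPM in GFP+ and 146, 213, 174 and 177 CPM in GFP- libraries, in the same order of mice. The groups overlapped, and the log2 fold change was -0.07 ± 0.15 (SE; adjusted p = 0.747, edgeR). Gas6 overlaps Tmem255b on the opposite strand in the annotation.

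Mertk, the receptor (chr2:128698956-128802894, plus strand), was at 152, 153, 330 and 205 CPM in GFP+ libraries of mice 2, 27, 4 and 19 and at 491, 472, 376 and 386 CPM in GFP-. All GFP+ libraries lay below all GFP- libraries, with mouse 4 the nearest to a tie. At 500 UMIs the shares of cells with a Mertk UMI overlapped, at 12.2% to 22.3% of GFP+ and 18.6% to 27.0% of GFP- cells, and at 1000 UMIs they did not, at 15.8% to 30.1% and 35.6% to 43.1%. The log2 fold change was -0.77 ± 0.21 (SE; adjusted p = 0.0251, edgeR). It kept its sign in all 23 alternatives but lost the call in 8, with adjusted p from 0.0520 to 0.315, among them the i.c.v. mice alone (-0.35, adjusted p = 0.315) and each fit that left out 1 library other than those of mouse 4. Within cells with microglia markers Mertk was at 207 to 330 CPM in GFP+ and 430 to 532 CPM in GFP- libraries. The summed level of 8 astrocyte markers was also lower in GFP+, at 29.4 to 68.6 CPM against 115 to 170 CPM in GFP- libraries. It was 13371 CPM in the naive astrocyte sort, and the part of astrocyte RNA in the Mertk difference was not tested.

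Scarb1 (chr5:125277087-125341094, minus strand), the receptor for high-density lipoprotein, was at 9.08, 9.32, 8.26 and 6.42 CPM in GFP+ and 21.1, 25.3, 16.7 and 17.7 CPM in GFP- libraries of mice 2, 27, 4 and 19. The groups did not overlap. Its log2 fold change was -0.99 ± 0.17 (SE; adjusted p = 0.00416, edgeR), and like that of Pros1 it was called in all 23 alternatives. Cells with a Scarb1 UMI at 500 UMIs made up 0.508% to 0.618% of GFP+ and 1.03% to 1.42% of GFP- cells.

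**Figure D2:**
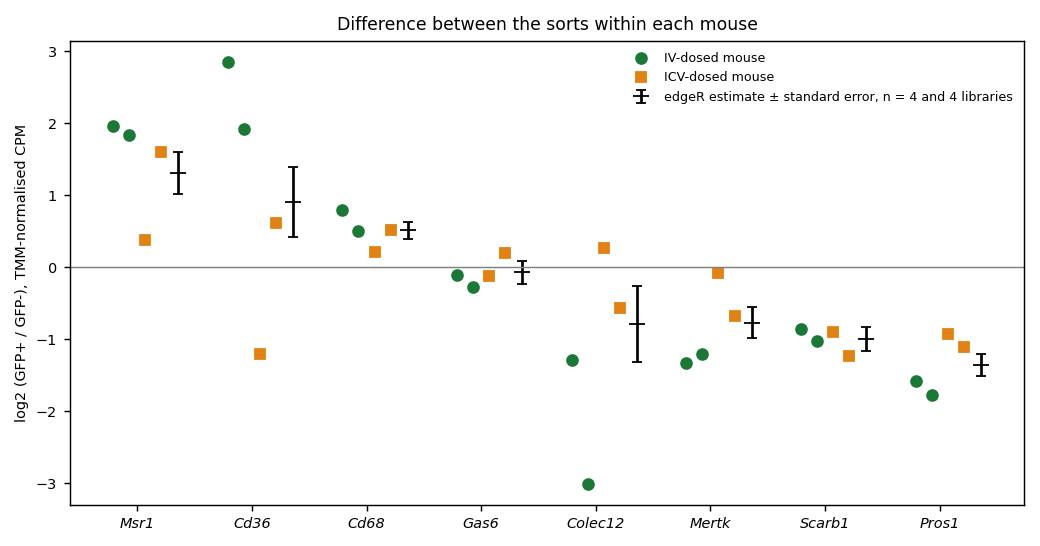
Difference between the sorts within each mouse. The vertical axis is log2 of GFP+ over GFP- TMM-normalised CPM, circles are i.v. mice, squares are i.c.v. mice, and the bars are edgeR estimates with standard errors from 4 and 4 libraries; Timd4 and Marco, with libraries at 0, are left out. Scarb1 and Pros1 lie below 0 in all 4 mice, and Cd36 runs from 2.85 in mouse 2 to -1.21 in mouse 4.

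Cd36 (chr5:17781690-17888801, minus strand) was the gene whose difference between sorts varied most with the mouse among those with counts in every library. Its GFP+ levels were 49.7 CPM in mouse 2 and 51.6 in mouse 27 after i.v. dosing, and 18.0 in mouse 4 and 32.3 in mouse 19 after i.c.v. dosing. Its GFP- levels were 8.85 and 18.2 CPM in the i.v. mice and 44.8 and 24.8 CPM in the i.c.v. mice. The sorts thus overlapped over all mice, and the log2 fold change of 0.91 ± 0.49 (SE; adjusted p = 0.183, edgeR) was not called. Within i.v. mice it was 2.27 (adjusted p = 0.00461) and within i.c.v. mice -0.30 (adjusted p = 0.647), and without the GFP- library of mouse 4 the overall value was 1.46 (adjusted p = 0.0441).

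Whether the difference between sorts depended on route was tested as an interaction in a fit of all 8 treated libraries, in which 1.91% of 12540 genes and none of the 9 tested here were called. For Cd36 the interaction was 2.56 ± 0.57 on the log2 scale (SE; adjusted p = 0.0673, edgeR). It lay between 2.06 and 3.20 when any 1 library was left out, with adjusted p from 0.0489 (without the GFP- library of mouse 19) to 0.272, and the fit with the mouse as a replicate block gave 2.60 (adjusted p = 0.0444). DESeq2 gave 2.58 (adjusted p = 6.77e-05), so the call turned on the method. The unadjusted p was 0.00173. The other interactions were 0.96 for Msr1, -0.92 for Mertk, -0.65 for Pros1, -1.85 for Colec12 and 5.26 for Timd4, with adjusted p from 0.130 to 0.255, and 0.12 for Scarb1, 0.28 for Cd68 and -0.25 for Gas6, with adjusted p from 0.542 to 0.856.

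Monocyte markers moved with Cd36. The summed level of 10 monocyte markers (Ly6c2, Ccr2, Plac8 and others) was 547 and 612 CPM in the GFP+ libraries of mice 2 and 27, 381 and 392 in those of mice 4 and 19, 108 and 213 in the GFP- libraries of mice 2 and 27, and 462 and 267 in those of mice 4 and 19. From 5 to 10 of the 10 were detected, and Ly6c2, Plac8 and Chil3 were at 0 in the GFP+ library of mouse 4. Without cells marked as other blood or brain types, but with those marked only as dendritic cells kept, the Cd36 interaction was 2.58. Cells with at least 2 monocyte markers, and more of them than of any other type, held at most 3.54% of the Cd36 UMIs of a treated library. The part of monocyte-like cells below that marker threshold was not tested. The summed level of 7 dendritic cell markers, of which 5 to 7 were detected, was 262 and 426 CPM in the GFP+ libraries of mice 2 and 27, 32.6 and 60.3 in those of mice 4 and 19, and 56.9 to 105 CPM in GFP- libraries. Neither Cd36 nor Timd4 was called between routes in GFP+ libraries, where both i.v. values of these dendritic cell markers lay above both i.c.v. values. Cells with at least 2 of these markers, and more of them than of any other type, held at most 1 Cd36 UMI and 0 Timd4 UMIs in a treated library, and the part of cells below that threshold was not tested. Neutrophil markers also varied with route, higher after i.v. dosing in GFP+ and after i.c.v. dosing in GFP- libraries. Their summed level in GFP+ libraries was 1627 and 3265 CPM in mice 2 and 27 and 1.02 and 0.825 in mice 4 and 19. In GFP- libraries it was 255 and 57.2 CPM in mice 2 and 27 and 5962 and 979 in mice 4 and 19. Cells with at least 2 neutrophil markers, and more than of any other type, held 0 Cd36 and 0 Msr1 UMIs in all 8 treated libraries. The part of cells below that threshold was not tested.

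The direct comparison of routes asked whether MLCs differ when HSPCs reach the brain from blood or by injection. Within GFP+ libraries, 2 against 2, 2.78% of genes were called (2.56% higher and 0.215% lower after i.v. dosing), and 1 of the 9 genes was. This was Colec12, a collectin-type scavenger receptor (chr18:9707595-9882644, plus strand), at 1.27 and 0.608 CPM after i.v. and 4.98 and 4.22 CPM after i.c.v. dosing. Both i.v. libraries lay below both i.c.v. libraries, as for 34.3% of all tested genes on library CPM, and the log2 fold change was -2.09 ± 0.43 (SE; adjusted p = 0.0418, edgeR). These levels rest on 21, 6, 44 and 46 UMIs, and of the 44 in mouse 4 a single cell, with markers of several cell types in equal number, held 24. The summed level of 7 fibroblast or mural markers (Dcn, Col1a1, Rgs5 and others) ran in the same direction, at 11.1 and 6.79 CPM after i.v. and 83.6 and 18.0 CPM after i.c.v. dosing, with all 7, 6, 7 and 3 of them detected. Cells with at least 2 of these markers, and more of them than of any other type, held 0 of the 44 Colec12 UMIs in mouse 4 and 2 of the 46 in mouse 19, and the part of other such cells was not tested. The log2 value stayed between -2.77 and -1.74 in 18 alternatives, but the call was lost in 13 of them, with adjusted p from 0.0503 to 0.246, among them the fits without any 1 of the 8 libraries. Colec12 overlaps 7 other annotated genes, 4 on its own strand.

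For the other 8 genes the difference between routes in MLCs was not called. Cd36 had a log2 fold change of 1.10 ± 0.38 (SE; adjusted p = 0.200, edgeR), Mertk of -0.69 ± 0.19 (adjusted p = 0.123) and Msr1 of -0.06 ± 0.26 (adjusted p = 0.942). Without the GFP+ library of mouse 19 the value for Mertk was -0.97 (adjusted p = 0.0415), but mouse 4 alone then stands for the i.c.v. route and is assumed to vary like the other groups. DESeq2 gave adjusted p of 0.0487 for Cd36 and 0.0242 for Mertk. For Msr1 the 4 GFP+ libraries interleaved by route. Within GFP- libraries edgeR called 0% of genes, although 1063 had an unadjusted p under 0.05 and DESeq2 called 68. There Cd36 was lower after i.v. dosing by a log2 value of -1.46 ± 0.42 (SE) and Msr1 by -1.01 ± 0.29, both with an adjusted p of 0.443, and DESeq2 gave Cd36 an adjusted p of 0.0208. Without 1 library the log2 value there ran from -2.09 to -0.94 for Cd36 and from -1.42 to -0.49 for Msr1. For both genes the 2 i.v. libraries lay below the 2 i.c.v. libraries, as they did for 13.1% of all tested genes.

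Timd4 (chr11:46810800-46844332, plus strand) was near the limit of detection in treated brains. GFP+ libraries held 10 UMIs in mouse 2, 52 in mouse 27, 1 in mouse 4 and 0 in mouse 19, or 0.606, 5.27, 0.113 and 0 CPM. GFP- libraries held 9, 27, 14 and 22 UMIs, or 1.81, 4.14, 1.73 and 2.83 CPM. The mouse 27 GFP+ library thus supplied most of the MLC signal, from 12 cells of which 1 held 15 UMIs. Summed over libraries, the i.v. over i.c.v. ratio in MLCs was 46.4 (62 against 1 UMIs, 95% exact counting interval 8.02 to 1861), and it covers counting error only. Of the 62 UMIs 52 were from mouse 27, and without that library the ratio was 12.0 (1.70 to 519), a setting chosen after seeing the data. With edgeR neither the sorts (adjusted p = 0.743) nor the routes in MLCs (adjusted p = 0.110) differed past the threshold. Without the GFP+ library of mouse 27 the sort difference was -2.91 (adjusted p = 0.0370), and DESeq2 gave the route difference in MLCs an adjusted p of 0.0119. Leaving out 1 library gave that route difference log2 values from 3.37 (without the GFP+ library of mouse 27, adjusted p = 0.179) to 7.86, with adjusted p from 0.0136 (without that of mouse 2) to 0.416, and the interaction adjusted p from 0.0429 (also without that of mouse 2) to 0.420. Without mouse 2, mouse 27 alone stands for MLCs after i.v. dosing, and its spread is assumed from the other groups. Timd4 UMIs were absent from GFP+ cells with at least 2 microglia markers and more than of any other type.

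Marco (chr1:120474538-120505024, minus strand), a collagenous scavenger receptor of tissue macrophages, had 0 UMIs in all 8 treated libraries and could not be tested. At these depths 0 UMIs allow up to 0.182 to 0.604 CPM per library (3 counts of the total). It was detected in PBMCs only, at 12.9 CPM, and all 34 of those UMIs came from 1 cell of 46376 UMIs. The same cell held 34 of the 84 Timd4 UMIs of the library, 32 of 295 for Msr1 and 26 of 407 for Cd36.

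Cells carrying border macrophage markers, such as those of CNS-associated macrophages (CAMs) of meninges and perivascular spaces, were examined because the sort gate can take them. With at least 2 of 10 markers (Mrc1, Pf4, Lyve1 and others) at 500 UMIs, they made up 3.24% to 7.49% of GFP+ and 1.76% to 4.27% of GFP- cells. All 10 markers were detected in every treated library, with a summed level of 844 to 1370 CPM in GFP+ and 422 to 854 in GFP-.

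In these cells, Cd36, Msr1, Gas6 and Cd68 were at higher levels than in the remaining cells in 8 of 8 treated libraries, as were 4.68% of all tested genes. Cd36 was 3.65 to 6.80 times as high in marked as in other GFP+ cells, and stood at 81.9 to 179 CPM in marked GFP- cells against 6.44 to 36.5 in the rest. Msr1 stood at 88.8 to 109 against 39.7 to 50.1 CPM in GFP+ and 105 to 132 against 9.98 to 34.3 in GFP-. In the marked cells the sorts overlapped for Msr1, which they did not in the rest. Gas6 was 2.54 to 5.14 times as high in marked as in other cells and Cd68 1.37 to 2.35 times.

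The levels of Colec12 and Timd4 in marked cells rest on few UMIs and were not tested. In GFP- libraries, marked cells had 29.5 to 92.3 CPM of Colec12 against 1.45 to 6.21 in the rest, and held 19.3% to 67.4% of its UMIs. In GFP+ libraries, marked cells had 0 to 9.23 CPM of Colec12 against 0.537 to 5.18 in the rest. Marked GFP+ cells of all 4 libraries lay below marked GFP- cells of all 4 for Colec12, as they did for 1.71% of all tested genes. Timd4 was at 6.40 to 54.1 CPM in marked GFP- cells and 0 to 7.12 CPM in marked GFP+ cells, which overlapped.

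Mertk and Pros1 ran the other way in GFP- libraries. Mertk was 0.428 to 0.507 times as high in marked as in other GFP- cells and Pros1 0.552 to 0.818 times, lower in 4 of 4 libraries for each, as were 33% of all tested genes. In GFP+ libraries Mertk was 0.655 to 1.17 times as high in marked as in other cells, and higher in 2 of 4 libraries. Pros1 was 0.827 to 1.26 times as high there, and higher in 3 of 4. When marked cells were left out of the sums, the sort difference of Msr1 was 1.54 (adjusted p = 0.0114), and that of Colec12 moved from -0.79 to -0.04 (adjusted p = 0.970).

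**Figure D3:**
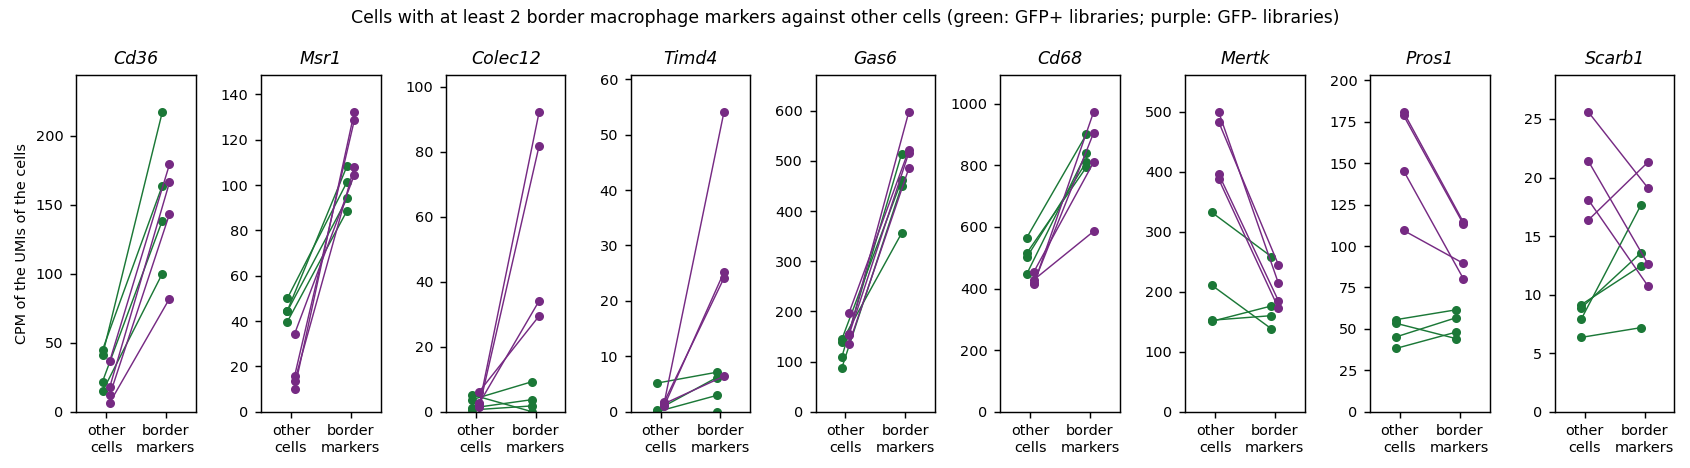
Levels in cells with at least 2 border macrophage markers and in the other cells of the 8 treated libraries. Each line joins both levels of a library in CPM of the UMIs of those cells, green for GFP+ and purple for GFP-. Lines for Cd36, Msr1, Gas6 and Cd68 rise in 8 of 8 libraries, and those for Colec12 rise steeply in GFP- libraries alone.

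The naive libraries place these levels beside other cell types. They have no replicates, so their intervals are 95% exact Poisson intervals that cover counting error only. Naive microglia were at 21.3 CPM (13.2 to 32.5) for Msr1, 35.4 (24.7 to 49.3) for Cd36, 509 (466 to 556) for Cd68, 314 (280 to 351) for Mertk, 178 (153 to 206) for Gas6 and 23.3 (14.8 to 34.9) for Scarb1. For Msr1, Scarb1 and Gas6 these values lay among those of GFP- libraries, and for Mertk the value lay between the GFP- libraries and 3 of the GFP+ libraries. For Cd68 the value lay higher than all 4 GFP- libraries and within the range of the GFP+ libraries, and for Cd36 it lay within the ranges of both sorts. Several of these placements depended on which barcodes were kept. A stricter filter, set at 500 genes and 5% of UMIs from mitochondria, left 142 of 1274 cells. Naive microglia were then at 40.0 CPM (22.9 to 65.0) for Msr1, 70.0 (46.5 to 101) for Cd36 and 27.5 (13.7 to 49.2) for Scarb1. The Msr1 and Scarb1 levels lay above all 4 GFP- libraries and the Cd36 level above all 8 treated libraries. Cd68, at 400.1 CPM (340 to 467), lay below all 8. With all deposited barcodes Msr1 was at 13.4 CPM (8.38 to 20.3), below all 4 GFP- libraries. Cd68, at 439.6 CPM (408 to 473), lay among the GFP- libraries. Each of these intervals reached levels of the treated libraries named, so these changes of place are not resolved beyond counting error.

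PBMCs had the highest level of Msr1 (112 CPM), Cd36 (155), Scarb1 (52.5), Timd4 (31.9) and Marco among the 12 libraries, and low levels of Mertk (13.7) and Gas6 (2.28). Under the stricter filter the first 3 remained highest, and Marco had 0 UMIs. Timd4 was then at 12.0 CPM (6.88 to 19.5), below the 17.5 of naive microglia (7.04 to 36.1), with overlapping intervals. PBMCs with at least 2 monocyte markers, and more than of any other type, were at 122 CPM for Msr1 and 174 for Cd36, and those with B cell markers at 1.36 and 8.19. The astrocyte sort was highest for Colec12, at 50.8 CPM (44.6 to 57.6), and was at 220 CPM for Mertk (207 to 233) and 49.7 for Gas6 (43.6 to 56.5). Its Colec12 level was 110.8 CPM (94.7 to 128.9) with the stricter filter and 33.3 CPM with all deposited barcodes, the highest under each. At least 2 astrocyte markers were found in 80.1% of its cells, fibroblast or mural markers in 8.12% and oligodendrocyte markers in 6.46%. Cells of that sort with more fibroblast or mural markers than those of any other type were at 603 CPM for Colec12 and held 52.9% of its UMIs, against 15.0 CPM in those with more astrocyte markers. Msr1, Cd36, Timd4 and Marco had 0 UMIs in both the astrocyte and the neuron sort, which allows up to 0.624 and 0.807 CPM.

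The order of the libraries by level differed between genes. For Pros1 it ran from GFP- and naive microglia, which did not separate, through the GFP+ libraries and PBMCs, which did not separate either, to the astrocyte and the neuron sort. For Msr1 it ran from PBMCs through the 4 GFP+ libraries to GFP- and naive microglia, with the astrocyte and neuron sorts at 0. By the root mean square difference of centred log2(CPM + 1) over 12 libraries, among 9668 genes, the nearest profile to Msr1 was AB124611 (0.30), to Cd68 Fcgr2b (0.22), to Scarb1 Acly (0.25), to Pros1 Accs (0.30), to Cd36 Cd69 (0.41), to Gas6 Rnf180 (0.39), to Mertk Cst3 (0.60), to Timd4 S1pr4 (0.57) and to Colec12 Arhgef4 (0.57). The likeness of each pair rests on 12 libraries, of which the 8 treated libraries and the naive microglia sort are from the same gate.

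Of the 27 other genes of apoptotic-cell clearance, 21 were tested, and 3 were higher and 7 lower in GFP+ libraries, beside 15.4% and 15.3% of all tested genes, with a median log2 fold change of -0.07 beside 0.00085 over all tested genes. Axl, the receptor tyrosine kinase related to Mertk, was higher by 1.44 ± 0.33 (SE; adjusted p = 0.0118, edgeR), at 218 ± 15.9 CPM in GFP+ and 95.4 ± 50.7 in GFP- libraries (SD, n = 4). Thus the 2 related receptors moved in opposite directions. The integrin chains Itgav and Itgb3, which bind apoptotic cells through bridging proteins, were lower by log2 values of -0.66 ± 0.17 (adjusted p = 0.0194) and -3.12 ± 0.33 (adjusted p = 0.000549). Itgb3 was at 2.86 ± 1.60 CPM in GFP+ against 29.7 ± 7.47 in GFP-. The summed level of 6 platelet markers was also lower in GFP+, at 1.72 to 6.68 CPM against 15.9 to 34.2 CPM in GFP- libraries. The part of platelet RNA in the Itgb3 difference was not tested. The engulfment adaptor Elmo1 was lower by -0.89 ± 0.17 (adjusted p = 0.00619), the lipid transporter Abca7 by -0.91 ± 0.14 (adjusted p = 0.00255) and the endocytic receptor Lrp1 by -0.59 ± 0.14 (adjusted p = 0.0137). Itgb5 and Havcr2 were also lower, and Cd300lf and Cd300ld higher. Trem2, at 1524 ± 260 CPM in GFP+ and 1692 ± 136 in GFP-, was not called.

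A further list of 25 genes held other scavenger and pattern receptors together with genes of neither kind, among them Lamp1 and Cd47. Of this list 24 were in the files and 15 were tested. Among them 5 were higher and 3 lower, beside the same 15.4% and 15.3% of all tested genes. Their median log2 fold change was 0.44 beside 0.00085. Cxcl16, which also serves as a scavenger receptor for oxidised lipoprotein, was higher by 1.15 ± 0.24 (SE; adjusted p = 0.00883, edgeR), and the mannose receptor Mrc1 by 1.31 ± 0.27 (adjusted p = 0.00840). Lamp1, a lysosomal membrane protein as CD68 is, was higher by 0.60 ± 0.12 (adjusted p = 0.00837), and Cd47, a signal against engulfment, by 0.55 ± 0.17 (adjusted p = 0.0343). Cd163, the haemoglobin scavenger receptor, was lower by -0.84 ± 0.27 (adjusted p = 0.0421), and Scarf2 and Megf11 were also lower. Mrc1 and Cd163 belong to the border macrophage markers counted above and moved in opposite directions.

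**Figure D4:**
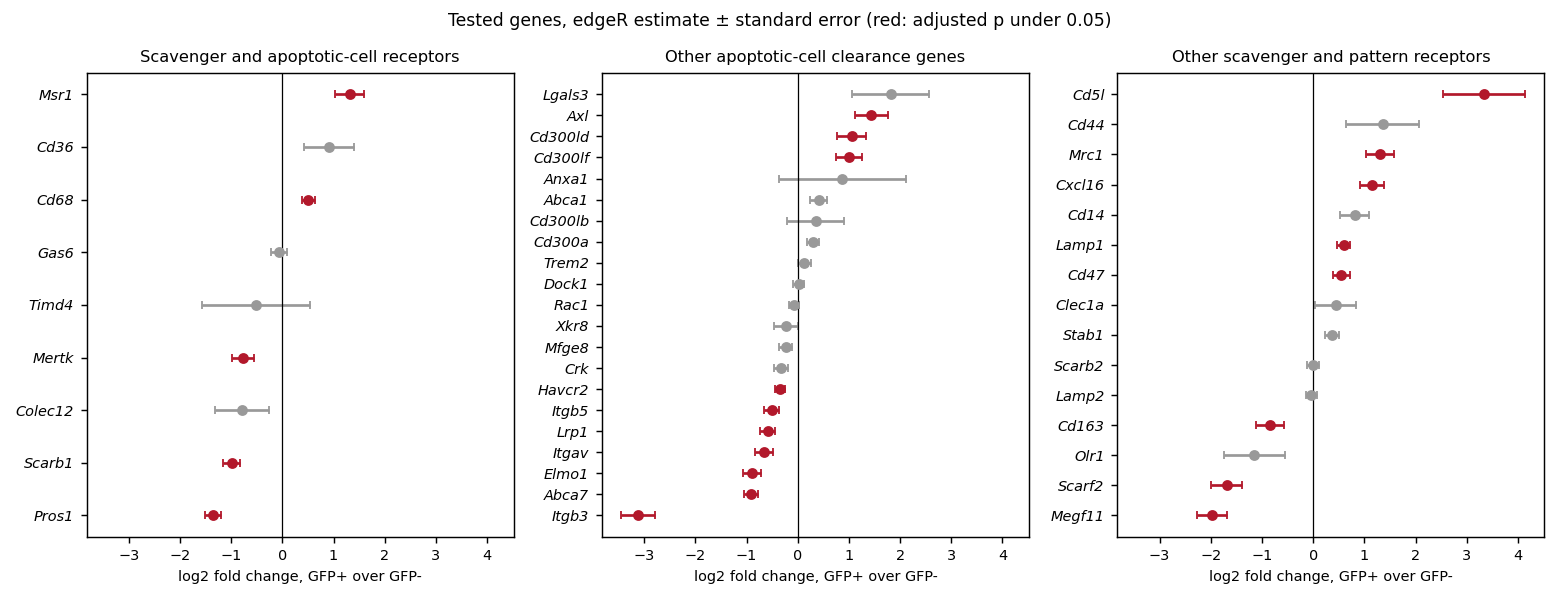
Differences between the sorts for the 9 tested genes, 21 other apoptotic-cell clearance genes and 15 genes of the list of other scavenger and pattern receptors. The horizontal axis is the edgeR log2 fold change of GFP+ over GFP- with its standard error, and red points have an adjusted p under 0.05. Msr1 and Axl lie to the right of 0 and Pros1, Scarb1 and Itgb3 to the left.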

How the data were processed

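Cells sorted from 4 treated brains and 1 naive mouse were sequenced with 10x Genomics 3' chemistry (12 libraries), and the authors deposited raw UMI counts per gene and barcode, made with Cell Ranger 3.1.0 per the file headers against mm10. The 41104 deposited barcodes were reduced to 30775 by a minimum of 200 genes and a maximum of 10% mitochondrial UMIs per barcode. No doublet caller was run; an alternative left out the cells of highest UMI totals. Counts were summed per library and tested with edgeR 4.0.16 (TMM, filterByExpr, quasi-likelihood, R 4.3.3) over 12540 genes; route contrasts and the interaction came from a 4-group fit of all 8 treated libraries, and DESeq2 1.42.0 was an alternative. On simulated data with 4-fold changes the sort comparison recovered 89% of changed genes, route within GFP+ 85.5%, route within GFP- 82% and the interaction 71.5%. Members called between the sorts differed by 1.42-fold (Cd68) to 2.57-fold (Pros1), so these recoveries do not describe changes of that size. The simulated libraries held no effect of the mouse.

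Replicate numbers name animals, so the GFP+ and GFP- libraries of a mouse are paired. Deviations of paired libraries from group means correlated at r = 0.22, -0.31, 0.03 and -0.26 in mice 2, 4, 19 and 27, over 12540 genes. Members and gene lists were chosen with earlier results of these data known. Named genes were the 10 members, the nearest profiles, and up to 5 called genes per direction and list with at least 20 CPM and the same direction in 4 of 4 mice; other genes were named after their values were seen. Total UMIs ranged from 987965 to 16514669 per library, and intervals at 95% cover counting error only. Promoters are from RefSeq GRCm38.p6 and gene positions from GENCODE for GRCm38.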

Additional observations from a re-analysis of the deposited data

Results flagged for a closer look

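The level of Timd4 in the GFP+ library of i.v. mouse 27, 5.27 CPM, stood apart from the other GFP+ libraries, which ran from 0 to 0.606 CPM. The gap divided by the range of the 4 libraries was 0.885, above Dixon's 95% critical value for 4 samples. By chance about 1 in 20 such groups would be picked out, and 20 were examined. Of its 52 Timd4 UMIs, 41 came from cells assigned to no listed cell type. An assignment needs at least 2 markers of a type and more than of any other type.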

How the results depend on the processing

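For the 9 tested genes, 640 of 711 alternative log2 fold changes kept their direction and side of the threshold, 25 lost and 21 gained a call, and 25 changed sign. Genes called between the sorts numbered 3853, and 1347 with cells thinned to 500 UMIs, 1031 in i.c.v. mice alone and 2117 to 3744 without 1 library, lowest without the GFP- libraries of mice 27 (2117) and 19 (2514). Route calls within GFP+ numbered 348, and 86 thinned, 526 with DESeq2, 679 with no low-count filter and 42 to 293 without 1 library, lowest without the GFP+ libraries of mice 4 (42) and 19 (180). Route calls within GFP- numbered 0, and 3 thinned, 68 with DESeq2, 83 with no filter, 4 with GFP- libraries alone and 0 to 23 without 1 library, with 5 without either GFP+ library of the i.v. mice and 23 without the GFP- library of mouse 19. Interaction calls numbered 240, and 142 with the stricter barcode filter, 74 thinned, 97 without cells with markers of other types, 598 with DESeq2, 698 with no filter and 41 to 239 without 1 library, with 101, 41 and 41 without the GFP- libraries of mice 2, 27 and 4 and 133, 49 and 135 without the GFP+ libraries of mice 27, 4 and 19. With the mouse as a replicate block there were 678 interaction calls, among them Cd36 (2.60), and the block changed no other member's call. Without 1 library the log2 fold change between the sorts was 0.65 to 1.46 for Cd36 and -0.18 to 0.032 for Gas6.

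All reversed values were of genes not called. Between the sorts, Cd36 was -0.30 and Gas6 0.038 in i.c.v. mice alone, and Timd4 was 0.21 without border marker cells and 0.26 in i.v. mice alone. For route within GFP+, Cd68 was -0.0025 with library totals, Msr1 0.027 thinned and 0.024 without cells of highest UMI totals, and Scarb1 -0.016 thinned. Without 1 library, the ranges there were -0.051 to 0.24 for Cd68 and -0.20 to 0.11 for Msr1. For route within GFP-, Gas6 was 0.033 with library totals, Colec12 0.20 with the stricter barcode filter and Timd4 -0.37 without border marker cells. Without 1 library the ranges there were -0.37 to 0.14 for Gas6, -0.65 to 0.11 for Colec12 and -0.43 to 0.73 for Timd4. For the interaction, Scarb1 was -0.24 thinned, -0.036 without cells of highest UMI totals and -0.10 with library totals. Without 1 library the ranges there were -0.46 to 0.051 for Gas6 and -0.026 to 0.27 for Scarb1. The cause was not tested for any of these. Library totals alone moved the median of all genes by -0.28 between the sorts, -0.11 and 0.11 for route in GFP+ and GFP-, and -0.23 for the interaction. Depth limits Timd4, Colec12 and Marco most, which had 135, 273 and 0 UMIs in the 8 treated libraries.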
